A study of Macrobrachium rosenbergii with 20 samples.

Results

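Among 30260 transcripts measured in the giant freshwater prawn, Macrobrachium rosenbergii, 118 were abundant in the hepatopancreas of females, at least 4-fold lower in that of males, and not also female-high in the gonads. They were chosen by measured values. A normalised count is the rounded estimated count divided by a median-of-ratios size factor taken over all 20 libraries, and each group was summarised by the median of its 5 libraries. The members were selected on 3 conditions: a female hepatopancreas median of at least 100, a female over male hepatopancreas ratio of at least 4, and an ovary over testis ratio under 2, with 1 added to each median before a ratio was taken. Of the 4174 transcripts with a female median of at least 100, 157 passed the hepatopancreas ratio, and 39 of these were dropped because they were female-high in the gonads too. The groups were female hepatopancreas, ovary, male hepatopancreas and testis with 5 libraries each, all from adults of the strain CMr1 and with no treatment named in the labels. Each library carries a weight gain label without a unit, from 4.33 to 7.21 in female hepatopancreas and from 1.61 to 3.69 in male hepatopancreas. The labels do not say whether the 5 libraries of a group are 5 animals, so every p-value here measures only the spread between these samples. Library totals ran from 8670654 to 18355664 counts.

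The hepatopancreas is the digestive gland of crustaceans. It secretes digestive enzymes, absorbs nutrients, stores lipid and glycogen, and takes part in detoxification and immune defence. In female prawns it is also known as a site where the yolk precursor vitellogenin is made and released into the haemolymph for uptake by growing oocytes, and its activity is known to follow the moult and ovarian cycles. The transcript IDs used here are paired with no gene name and 0 of them matched the reference gene table (31758 genes), so no member can be tied to any of these functions and the tissue labels could not be checked against marker genes. An ID gives a quality class, the word Female or Male, a number after f, and a length. Of the 118 members, 112 carry the word Female (94.9%, against 97.4% of the 4174 transcripts with a female median of at least 100) and 6 the word Male (5.08% against 2.59%). All 118 are in the class HQ. Their lengths ran from 279 to 4083 bases with a median of 1629.5, against 1736 for the 4174, and the median number after f was 4 in both.

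2 hepatopancreas libraries stood apart in these transcripts. The rule used the medians of these libraries, and the 4174 did not face its ratio. The shares below are therefore a description, and nothing is read from their differences. The library labelled male hepatopancreas 5 was alone the highest of the males for 91 members (77.1%, against 26.5% of the 4174), and was at or above the female median for 48 (40.7%). Its value was at least 4 times the highest of males 1 to 4 for 50 members (42.4%, against 1.94%). The median over members of its log2 ratio to the median of males 1 to 4 was 2.84, against -0.02 over the 4174. Its median log2 ratio to the female median was -0.37, so for these transcripts it sat nearer the females than males 1 to 4. Whether its label is right was not tested, and every male hepatopancreas value given for all 5 libraries includes it. Female hepatopancreas 3 was alone the lowest of the females for 53 members (44.9%, against 36%) and alone the highest for 32 (27.1%, against 25.7%). It was at least 4 times lower than the next female for 37 members (31.4%, against 8.05%). The 132 transcripts that met the mirror rule were high in male hepatopancreas and not also male-high in the gonads. In these, male 5 departed the other way: it was alone the lowest male for 113, with a median log2 ratio to males 1 to 4 of -2.35. The mirror rule used the same hepatopancreas libraries, so this is a description and not a separate check on male 5. The difference between the sexes in bulk tissue is a difference in counts, and fewer cells of a type and less RNA per cell cannot be told apart.

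The share of all counts taken by the 118 members shows these libraries. It was 4.64%, 4.03%, 8.63%, 2.67% and 4.29% in female hepatopancreas 1 to 5 (mean 4.85 ± 2.24, SD, n = 5). In male hepatopancreas 1 to 5 it was 0.644%, 0.375%, 0.353%, 0.673% and 4.72% (1.35 ± 1.89). It was 0.559% ± 0.12 in ovary and 0.303% ± 0.158 in testis (SD, n = 5). Males 1 to 4 lay below every female library, while male 5 lay above 4 of the 5. Since these values chose the members, no test of the difference is given.

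**Figure D1:**
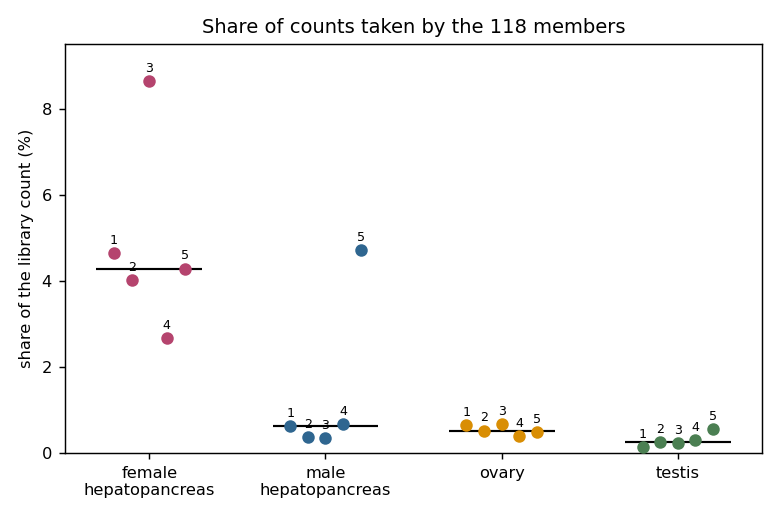
Share of each library's counts taken by the 118 members, in percent, with 1 point for each library (numbered) and a line at the group median. The female libraries lie between 2.67% and 8.63%, males 1 to 4 between 0.353% and 0.673%, and male 5 at 4.72%.

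The hepatopancreas ratios were mostly moderate, with a long upper tail. They ran from 4.01 to 2996, with a median of 7.30 and quartiles at 5.25 and 16.8. The ratio lay between 4 and 5 for 24 members, between 5 and 10 for 52, between 10 and 20 for 15, between 20 and 100 for 18, and at or above 100 for 9. Female medians ran from 111.9 to 164972 normalised counts with a median of 882, and 15 members were at 10000 or more. Male medians were 0 for 6 members and ran up to 41103. At the edges of the conditions, the member of lowest female median had 111.9 and the nearest transcript left out had 93.9. The lowest ratio inside was 4.011 and the nearest outside was 3.984, and the highest ovary over testis ratio inside was 1.856 against 2.039 outside. Computed without male 5, the median ratio of the same 118 was 8.18 and 110 stayed at 4 or more, the lowest being 0.655. Without female 3 the median was 7.53, and 109 stayed at 4 or more.

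**Figure D2:**
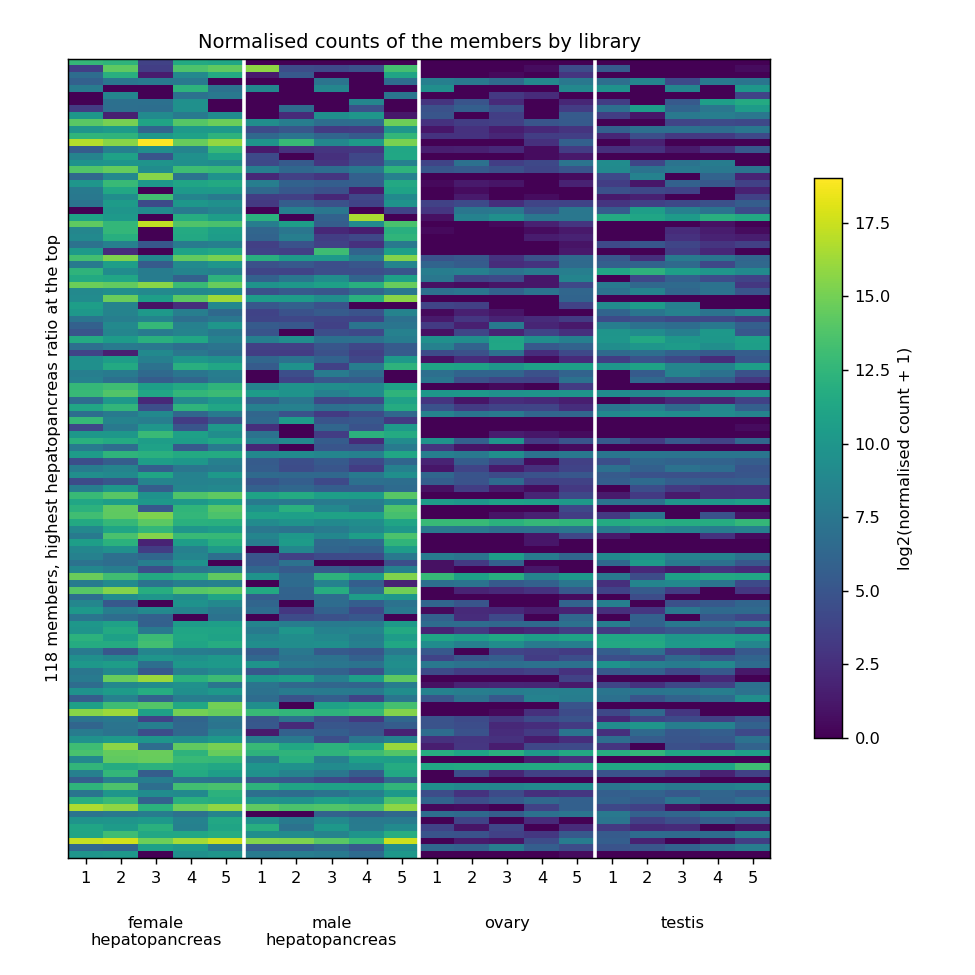
Normalised counts of the 118 members (rows, from the highest hepatopancreas ratio of 2996 at the top to 4.01 at the bottom) in 20 libraries (columns, numbered within each group), as log2(normalised count + 1). The column of male 5 looks like the female columns for much of its length, and the column of female 3 alternates between dark and bright members.

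The 2 members of highest female hepatopancreas level per kilobase of length were transcript_HQ_Female_transcript16221/f37p0/1165 and transcript_HQ_Male_transcript31470/f5p0/606, at median levels of 141607 and 104757 normalised counts per kilobase. The first had normalised counts of 164972, 215246, 28677, 88849.8 and 192305 in females 1 to 5. In males 1 to 5 it had 45437, 41103, 18152, 7031 and 188475. Male 5 was within the range of the females, and female 3 was below males 1 and 2, so the groups overlapped. In the gonads it was a trace, with medians of 1.65 in ovary and 2.4 in testis. The edgeR quasi-likelihood test gave a log2 difference of 1.24 ± 0.85 (SE), female over male, with a Benjamini-Hochberg adjusted p of 0.382.

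The second, one of the 6 with the word Male in the ID, was at 123499, 50292, 524129, 24062 and 63483 normalised counts in females 1 to 5. In males 1 to 5 it was at 919, 7189.5, 444, 1317 and 37508. Every female exceeded males 1 to 4, and female 3 was the highest of all, but male 5 exceeded female 4. Its log2 difference by edgeR was 4.11 ± 1.43 (SE), adjusted p = 0.11. Without male 5 the difference was 6.14 with an adjusted p of 0.0264, and DESeq2 on all 10 libraries gave an adjusted p of 0.00428. In the 19 alternatives run for it the adjusted p ranged from 0.00428 to 0.761, and 3 called it. Together these 2 transcripts took 1.81%, 1.06%, 4.09%, 0.618% and 1.22% of all counts in females 1 to 5. They took 0.0316% to 0.156% in males 1 to 4 and 1.22% in male 5.

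**Figure D3:**
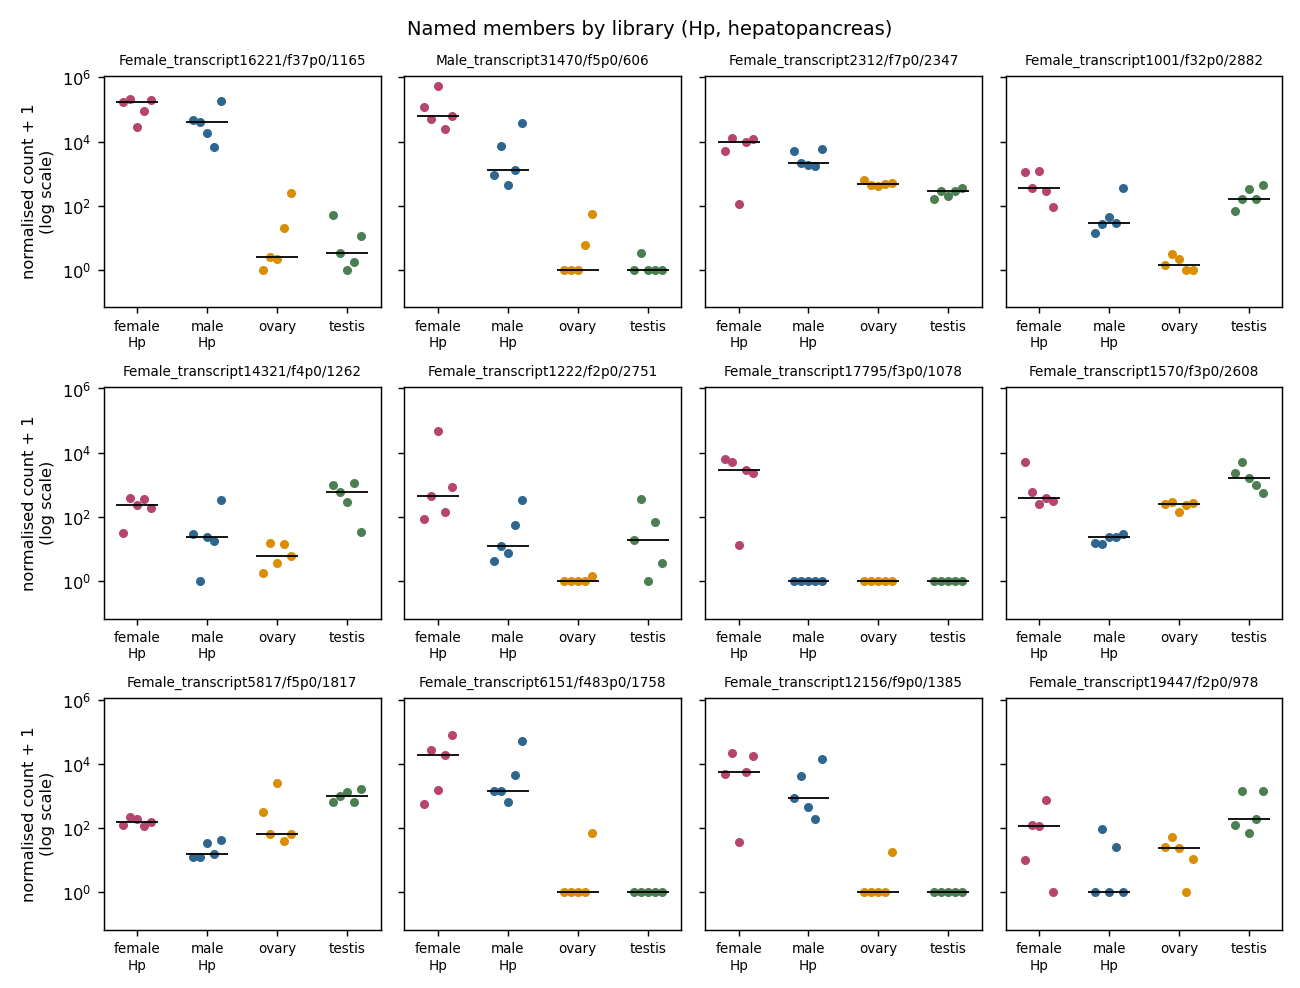
Normalised counts + 1 (log axis) of the 12 named members, 1 panel for each, with 1 point for each library ordered 1 to 5 within a group and a line at the group median. The panel of transcript17795 has all 15 male and gonad libraries at 0, and the panel of transcript1570 has testis above every other group's median.

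Among the most abundant members, male 5 was high in nearly all. Of the 15 with a female median of at least 10000 normalised counts, male 5 was alone the highest male for 14, at or above the lowest female for 15, and at or above the female median for 9. None of the 15 separated all females from all males. Over all 118 members the same counts, in that order, were 91, 96, 48 and 14. The rule used these libraries, so the counts are a description. Female 3 was alone the lowest female for 8 of the 15 and alone the highest for 5, and 10 had both gonad medians under 10. A 1632-base member, singled out after its values were seen, shows both departures: it was at 8972, 54260.3, 110.0, 21532 and 34659.6 in females 1 to 5. In males it was at 6979, 2488, 4820.1, 2577 and 71126. Female 3 lay below every male and male 5 above every female.

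Members that were lowest or highest in female 3 are described here, and the rest were neither. By the shares given above, female 3 was often the lowest or highest female over all transcripts with a female median of at least 100 too. The 53 members lowest in female 3 took 3.08%, 2.85%, 1.81% and 2.58% of counts in females 1, 2, 4 and 5, and 0.4% in female 3. They took 0.265% to 0.512% in males 1 to 4, which holds female 3 within that range, and 3.39% in male 5, above every female. The 32 members highest in female 3 took 7.92% there, 0.523% to 1.35% in the other females, 0.0554% to 0.109% in males 1 to 4 and 0.809% in male 5. These classes were formed from the values themselves and are given as a description. The median length was 1502 bases in the first class and 1982.5 in the second.

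**Figure D4:**
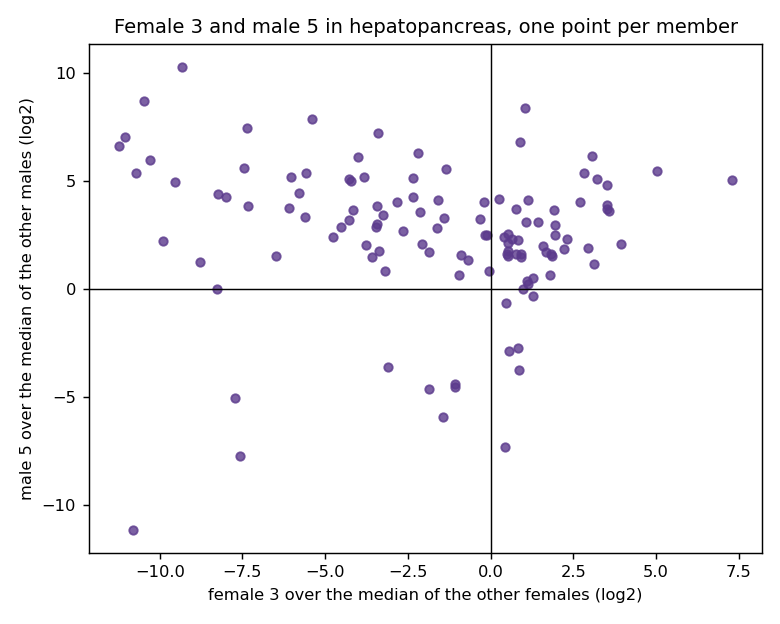
For each of the 118 members, the log2 ratio of female 3 to the median of the other females (horizontal) and of male 5 to the median of the other males (vertical), each with 1 added to the normalised counts. Most points lie above the horizontal line, with a median of 2.84, and they spread to both sides of the vertical line, with a median of -1.01.

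Few members were at an even level among the females. The rule used the medians of these hepatopancreas libraries, and the 4174 did not face its ratio. Nothing is therefore read from the differences in share. The 5 female libraries lay within a factor of 4 for 14 members (11.9%), against 65.4% of the 4174 transcripts, and were 100-fold apart or more for 37 (31.4%, against 5.2%). For 15 members (12.7%, against 1.92%) a female library was at 0 while another was at 100 or more, and for 19 (16.1%, against 1.63%) the same held among the males. The 9 members with ratios of 100 or more illustrate it: 6 had a male median of 0, 5 had a female library at 0, and in 6 at least 1 male library was above the female median. The 1543-base member with the word Male in its ID, singled out for this, was at 10.6, 19651, 10.7, 13537 and 21042 in females 1 to 5, and at 57118, 20.9, 17.0, 24.7 and 10012 in males 1 to 5. Its ratio of medians was 527, although the highest of its 10 values was in male 1. A 2024-base member, chosen in the same way and also with the word Male in its ID, had a ratio of 24.9 with a value of 97182 in male 4, above all 5 females (0 to 3516). In 12 of the 118 members at least 1 of males 1 to 4 was above the female median, and in 57 at least 1 of all 5 males was.

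Members with no overlap between the sexes were a minority. All 5 females exceeded all 5 males for 14 members; over the 6582 transcripts tested in hepatopancreas the same held for 4.41%, and since the rule used this contrast nothing is read from the difference. Without male 5 the count was 48 members and 7.96% of those transcripts, without female 3 it was 20 and 6.41%, and without both it was 72 and 11.7%. The lowest female was 1.09 to 8.67 times the highest male, with a median of 1.89, in the members with both above 0. In 12 of the 14 male 5 was the highest male even so. Of these 14, 10 had a gonad median of at least 100 and 1 had both gonad medians under 10, and 7 had females within a factor of 4.

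Several of the 14 were moderate in level and steady in the females, and a pair of them was singled out after their values were seen. A 1084-base member was at 825, 895, 909, 697 and 597 in females 1 to 5 and at 16.2, 39.9, 6.81, 17.1 and 316 in males 1 to 5. A 1925-base member was at 482, 665, 499, 468.5 and 584 in females and at 24.3, 38.0, 30.6, 77.8 and 199 in males. In both, male 5 was between the other males and the females. The member of highest ratio, transcript_HQ_Female_transcript17795/f3p0/1078, was at 6336, 5281, 12.5, 2995 and 2402 in females 1 to 5 and at 0 in all 15 other libraries. Over pooled counts it was at least 2824-fold higher in female than in male hepatopancreas, taking 3 counts over the male group as the floor. This bound covers counting error only, and female 3 alone among the females was close to the males. Male 5 had no count of it.

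The edgeR test over all transcripts called 13 of the 116 members tested as higher in female hepatopancreas (Benjamini-Hochberg adjusted p from 0.036 to 0.0479), and 2.19% of all 6582 transcripts were called in that direction. At an unadjusted p under 0.05 the count was 48 of 116, and 14.3% of all transcripts passed in that direction. The rule used these libraries and this contrast, so the counts describe the members and support nothing. The log2 differences were positive for 113 of 116, with a median of 1.97 against 0.06 over all transcripts tested. With each group's counts pooled, and a group without counts set to 3 counts, the medians were 1.64 and -0.01. DESeq2 called 39 members, with 9.57% of all transcripts called in that direction. EdgeR without male 5 called 49 members and 6.81% of all transcripts. Without female 3 it called 12 members and 5.32% of all transcripts, and without female 1 it called 1 member and 0.0154%. Without any other single library it called 0 members and 0% of all transcripts. EdgeR also called 0 members with library totals in place of TMM factors, with no filter on low counts, with the replicate number as a block, and with weight gain as a covariate. In each of these settings 0% of all transcripts were called in that direction, so the zeros are not particular to the members. Weight gain did not overlap between the sexes in hepatopancreas, so it and sex cannot be told apart.

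In the gonads the members are described in 3 classes of median level. The gonad condition bore on these classes, since a transcript at 0 in both gonads has a ratio of 1 and passes. The 4174 transcripts did not face that condition, so nothing is read from the differences in share. Both gonad medians were under 10 for 39 members (33.1%, against 12% of the 4174 transcripts), and both were 0 for 20 of these. A gonad median of 100 or more was found for 42 (35.6%, against 79%), and 37 lay between. The class low in both gonads held most of the members' counts in each of the 5 female hepatopancreas libraries. It took 3.4%, 2.68%, 6.96%, 1.69% and 2.98% of counts in females 1 to 5, 0.193% to 0.504% in males 1 to 4 and 3.04% in male 5. Its median female level was 1530.4 normalised counts per kilobase, against 575 for the class with a gonad at 100 or more and 290.1 for the class between. The median hepatopancreas ratios of the 3 classes were close, at 7.44, 7.54 and 7.03 in the order given.

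**Figure D5:**
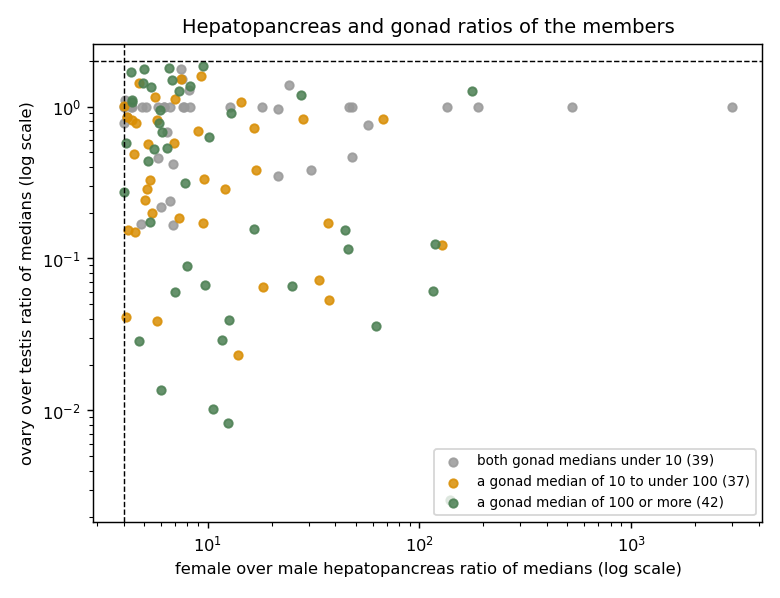
Hepatopancreas ratio (female over male) and gonad ratio (ovary over testis) of the 118 members on log axes, coloured by the higher of the gonad medians, with dashed lines at the conditions of 4 and 2. Of the points, 39 have both gonad medians under 10, 37 a higher median of 10 to under 100, and 42 one of 100 or more, and the points reach down to an ovary over testis ratio of 0.00256.

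The condition on the gonad ratio capped the ovary side, so the members' balance between the gonads is a description of what it left. The testis median was at least 2 times the ovary median for 50 members, at least 4 times for 36 and at least 10 times for 19. Over the 157 transcripts that passed before this condition, those counts are 31.8%, 22.9% and 12.1%, beside 31.8%, 18.1% and 7.09% of the 4174. Of the 75 members with enough counts to test, edgeR called 24 higher in testis and 4 higher in ovary, where 29.9% and 27% of all 7045 transcripts were called. The condition bore on this contrast too, so the counts are a description. The median log2 difference, ovary over testis, was -0.87 in the members and -0.11 over all transcripts tested, and the pooled counts gave -0.99 and -0.12. With library totals in place of TMM factors the split of members was 12 higher in ovary and 12 in testis, where 46.2% and 13.9% of all transcripts were called. That scaling moved the median of all transcripts by 1.28 on the log2 scale.

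3 members were named in this comparison. Transcript_HQ_Female_transcript1001/f32p0/2882 was at 67.7, 168.0, 331, 159 and 452 in testis 1 to 5 and at 0.4, 2.2, 1.16, 0 and 0 in ovary 1 to 5. Its testis and ovary libraries were wide apart, and in hepatopancreas it ran from 89.2 to 1225 in females and 12.9 to 42.6 in males 1 to 4, with 358.0 in male 5. Its log2 difference by edgeR, ovary over testis, was -8.14 ± 0.98 (SE), adjusted p = 9.79e-05. Transcript_HQ_Female_transcript14321/f4p0/1262 was at 976, 596.5, 300.1, 1134 and 34.2 in testis, and at 0.8, 14.8, 2.7, 13.5 and 5.08 in ovary. Testis 5 was far below the other testes but above every ovary, and the log2 difference by edgeR was -6.34 ± 1.07 (SE), adjusted p = 0.000682. The testis median of this member, 596.5, was above its female hepatopancreas median of 243. The libraries of these groups overlapped, and the difference was not tested.

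On the ovary side, transcript_HQ_Female_transcript2312/f7p0/2347 was at 652.5, 441, 408, 483 and 514 in ovary 1 to 5 and at 167.5, 287, 198, 295 and 371 in testis 1 to 5. All ovaries exceeded all testes, by 0.94 ± 0.27 (SE) on the log2 scale with an edgeR adjusted p of 0.0121. With all 4 groups in 1 fit the adjusted p was 0.233, and over the 19 alternatives it ranged from 0.00242 to 0.233. In hepatopancreas the same transcript was at 5189, 13333, 116, 9512.5 and 11668 in females and 5073, 2193.5, 1843, 1738 and 5916 in males. Female 3 was below every male and below every gonad library, so the sexes overlapped.

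Ovary was the lower tissue within females for most members tested. Of the 109 members tested, edgeR called 85 higher in female hepatopancreas than in ovary and 0 higher in ovary, where 33% and 33.6% of all 7107 transcripts were called. No member passed in the ovary direction at an unadjusted p under 0.05 either, against 34.9% of all transcripts, and DESeq2 also called 0. The rule required a high level in female hepatopancreas, which bears on this direction. The median log2 difference, ovary over hepatopancreas, was -5.4 in the members and -0.03 over all transcripts tested, and -5.63 and -0.21 from the pooled counts. With library totals, which moved the median of all transcripts by 1.66, 67 members were called higher in hepatopancreas and 7 higher in ovary, where 15.8% and 56.2% of all transcripts were called.

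The members of largest difference here were transcript17795, at 0 in all 5 ovaries, and transcript_HQ_Female_transcript1222/f2p0/2751. The first was at least 9842-fold higher in female hepatopancreas than in ovary, against a floor of 3 counts over the 5 ovaries, and its edgeR adjusted p was 0.00121. The second was at 83.0, 461, 47721, 146 and 842 in females 1 to 5 and had 1 count in the ovaries, in ovary 5. Female 3 was more than an order of magnitude above every other female, and it accounted for most of the pooled counts. The pooled ratio was 158289 with a 95% exact interval from 28408 to 6252178, which covers counting error only, and the edgeR adjusted p was 0.000723. In testis it was at 17.7, 349, 0, 66.6 and 2.77, above the ovaries in 4 of 5 libraries.

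Traces of the most abundant members in ovary were highest in ovary 5. All 18 members with a female hepatopancreas median of at least 5000 and an ovary median under 10 were highest in ovary 5, where they ran from 5.08 to 248 normalised counts. The same was true of 165 of the 184 transcripts of that kind over the whole table (89.7%). The summed value of these members in ovary 5 was 0.132% of their summed female hepatopancreas median, and 0.131% for the 184 transcripts. In ovaries 1 to 4 it was 0.000641% to 0.0152% for the members. Whether these traces came from ovary cells was not tested.

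Within males the members were divided between the tissues. Of the 100 tested, edgeR called 11 higher in testis and 40 higher in male hepatopancreas, where 25.1% and 23% of all 7094 transcripts were called. Without male 5 the counts were 17 and 24 of 87 tested, where 23.1% and 19.3% of all transcripts were called. These tests were unpaired. With the replicate number as a block the counts were 14 and 38, where 22.5% and 23.2% of all transcripts were called. The rule used the male hepatopancreas as the low side of a ratio, which bears on both counts. The median log2 difference, testis over hepatopancreas, was -1.42 in the members and 0.21 over all transcripts tested, and -1.48 and 0.06 from the pooled counts. With library totals the calls were 16 and 36, where 44.7% and 15.3% of all transcripts were called, and the median of all transcripts moved by 0.89.

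On the testis side, transcript_HQ_Female_transcript1570/f3p0/2608 was at 2405, 5065, 1662, 1008 and 539.6 in testis 1 to 5 and at 14.6, 13.3, 22.1, 22.8 and 29.5 in males 1 to 5. Its log2 difference by edgeR was 6.75 ± 0.63 (SE), adjusted p = 1.98e-05. It was at 5214, 607, 256, 381 and 302.5 in female hepatopancreas 1 to 5 and at 147 to 302.0 in ovary, so male hepatopancreas was the only group under 100, and its 5 values did not overlap those of any other group. Transcript_HQ_Female_transcript5817/f5p0/1817 was at 633, 1013, 1359, 659 and 1626 in testis 1 to 5. In males 1 to 5 it was at 11.3, 11.4, 32.3, 15.2 and 42.3, and in females 1 to 5 at 122, 228, 198, 116 and 156. Its log2 difference by edgeR was 5.70 ± 0.55 (SE), adjusted p = 2.33e-05. In ovary it was uneven, at 322, 66.4, 2473, 38.0 and 66.5, with ovary 4 below male 5. Both are among the 14 members whose sexes did not overlap in hepatopancreas, and both are among the 11 members (9.32%, against 50.4% of the 4174) with a gonad median above the female hepatopancreas median. In 9 of those 11 testis was the higher gonad. The rule capped the ovary side and the 4174 did not face that cap, so the share and this count are a description.

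On the hepatopancreas side, transcript_HQ_Female_transcript6151/f483p0/1758 was at 1449, 1393, 652, 4349 and 50859.9 in males 1 to 5 and had no count in any testis. It was at least 29219-fold higher in male hepatopancreas than in testis against a floor of 3 counts over the 5 testes. Most of the pooled male counts behind this bound came from male 5. The edgeR adjusted p of this transcript was 0.00271. In females 1 to 5 it was at 560.1, 26431, 1580.0, 18528 and 81810.1. Female 1 was below every male, female 3 lay among males 1 to 4, and male 5 lay above 4 of the females. Transcript_HQ_Female_transcript12156/f9p0/1385 was at 841, 4284.5, 465, 195.5 and 13709.9 in males 1 to 5 and also had no count in testis. It was at least 9202-fold higher in male hepatopancreas on the same floor, again with most of the pooled male counts from male 5. Its edgeR adjusted p was 0.00237. In females 1 to 5 it was at 4746, 21375, 36.7, 5601 and 16972, so female 3 was below every male.

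Weight gain is a label that the rule did not use. A slope common to both sexes was fitted within sex over the 10 hepatopancreas libraries, per unit of the weight gain label. The edgeR test called 0 of 116 members and 0 of all 6582 transcripts, which is 0% of the table. At an unadjusted p under 0.05 there were 5 members (4.31%), 3 rising and 2 falling with weight gain, against 6.15% of all transcripts. The smallest adjusted p among members was 0.751. The median slope was 0.07 on the log2 scale in the members and 0.02 over all transcripts. DESeq2 called 1 member (0.862%), against 1.49% of all transcripts.

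That member was transcript_HQ_Female_transcript19447/f2p0/978, which also had the smallest p with edgeR (log2 slope 2.63 ± 0.57, SE, edgeR adjusted p = 0.751), while DESeq2 gave an adjusted p of 0.0135. Females 1 to 5, with weight gains of 4.33, 6.78, 7.05, 7.21 and 4.45, had 8.83, 120.5, 117, 760.2 and 0 normalised counts. Males 1 to 5, with weight gains of 2.06, 3.69, 1.61, 2.83 and 2.77, had 0, 94.9, 0, 24.7 and 0. Within each sex the library of highest weight gain had the highest value, and the 2 females of lowest weight gain had the lowest. Among falling members the smallest p was that of transcript1570, with a log2 slope of -0.89 ± 0.31 (SE, edgeR adjusted p = 0.77). Its slope was 0.07 without female 1, the library of lowest weight gain among the females and of highest value.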

How the data were processed

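RNA from hepatopancreas, ovary and testis was sequenced after preparation with a directional kit, per the labels' protocols. The table deposited by the authors holds estimated counts for each transcript and library, not normalised (library totals differ). Per the submitters' processing notes, Bowtie 0.12.2 and DESeq 1.10.1 were among the tools, with no role stated. Which program counted the reads, and on which transcript set, is not given in the sources used here. Near-identical transcripts could therefore share reads, and such members are uncertain.

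Groups follow the labels. The members, lists and tests were chosen with earlier results of these data known. Counts were rounded and tested with edgeR 4.0.16 (quasi-likelihood, TMM factors) in R 4.3.3, each comparison on its own 10 libraries, over transcripts that reached 10 counts in 5 or more of them. Calls needed a Benjamini-Hochberg adjusted p under 0.05 over the whole table. Scripts were tested on simulated data. Bounds take 3 counts as the floor. PCR reads carry no molecular identifiers, so intervals and bounds cover counting error only.

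Named members are at most 2 for each direction and comparison: in hepatopancreas those of highest female level per kilobase, between tissues and gonads the called members of largest change whose libraries do not overlap, and for weight gain the smallest p in each direction. Same-numbered libraries of male hepatopancreas and testis deviated together (correlations from 0.15 to 0.28, 5 of 5 over 0.1). The main tests took no pairing into account, and the replicate number as a block was an alternative. The sample descriptions give both tissues of a sex the same name and number, but no label says that this is a shared animal. Between male hepatopancreas and testis, weight gain was nearly equal for number 1 (2.06 and 2.05) and number 5 (2.77 and 2.74). It differed for number 2 (3.69 and 2.83), number 3 (1.61 and 2.61) and number 4 (2.83 and 1.48). Between female hepatopancreas and ovary it differed for every number, so the labels do not settle a pairing. Alternatives were DESeq2 1.42.0, its size factors, library totals, other filters, all 4 groups in 1 fit, a replicate block, weight gain as covariate, leaving out each library, leaving out female hepatopancreas 4, male hepatopancreas 5 and testis 5, and other limits in the rule.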

Additional observations from a re-analysis of the deposited data

Results flagged for a closer look

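Of 56 groups of 5 libraries examined for the 12 named members and the members' summed and median levels, 22 held 1 library far from the other 4. A rate of about 1 in 20 by chance would hold only for independent groups of normally distributed values. These are counts, mostly of members named from the same data, and the same libraries recur. No excess over chance is therefore read from the 22. All values are normalised counts unless a percent is given. In male hepatopancreas, library 5 stood apart for the share of counts taken by the members (4.72%, others 0.353% to 0.673%) and for their median level (771, others 63.6 to 95.8). The same library stood apart for transcript16221 (188475, others 7031 to 45437), transcript31470 (37508, others 444 to 7189.5), transcript1001 (358.0, others 12.9 to 42.6), transcript14321 (331, others 0 to 29.1), transcript1222 (332, others 3.24 to 55.0) and transcript6151 (50859.9, others 652 to 4349). Male library 2 stood apart for transcript19447 (94.9, others 0 to 24.7).

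In female hepatopancreas, library 3 was far above the others for transcript31470 (524129, others 24062 to 123499) and transcript1222 (47721, others 83.0 to 842). Library 1 was far above for transcript1570 (5214, others 256 to 607), and library 4 for transcript19447 (760.2, others 0 to 120.5).

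In ovary, library 5 stood apart for transcript16221 (248, others 0 to 19.9), transcript31470 (55.8, others 0 to 5.26), transcript1222 (0.508, others 0), transcript6151 (68.0, others 0) and transcript12156 (16.8, others 0). Ovary 3 stood apart for transcript5817 (2473, others 38.0 to 322). In testis, library 1 stood apart for transcript16221 (49.9, others 0 to 10.2), and library 2 for transcript31470 (2.4, others 0) and transcript1222 (349, others 0 to 66.6). The value of transcript1222 in ovary 5 is 1 count, and that of transcript31470 in testis 2 is 2 counts.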

How the results depend on the processing

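The rule gave 118 members, 300 with group means in place of medians (365 before the limit, 23 shared with the 118), 74 with a ratio of at least 6, 118 with library totals (79 shared), and 100 to 141 when 1 library was left out. In hepatopancreas edgeR called 13 members higher in females, beside 2.19% of all transcripts. DESeq2 called 39 (9.57% of all transcripts), and edgeR without female 4 and male 5 called 38 (3.84%). Library totals, no filter, the replicate block and weight gain as covariate each gave 0 members and 0% of all transcripts. Leaving out 1 library gave 0 to 49 members, beside 0% to 6.81% of all transcripts. Between the gonads, library totals gave 12 called higher in ovary and 12 in testis, beside 46.2% and 13.9% of all transcripts. A filter of 50 counts gave 2 and 15 of 49 tested (30% and 29.6% of all transcripts). In ovary the replicate block gave 1 (25.1%) and all 4 groups in 1 fit gave 1 (24.9%). Weight gain as covariate gave 14 in testis (18.1%). Leaving out 1 library gave 1 to 5 in ovary (23.8% to 30.7%) and 19 to 25 in testis (26.4% to 30.9%). Library totals gave 7 higher in ovary than in female hepatopancreas, beside 56.2% of all transcripts. Between testis and male hepatopancreas, leaving out male 5 and testis 5 gave 17 and 24, beside 22.6% and 21.6% of all transcripts. Leaving out 1 library gave 9 to 17 (18.9% to 23.1%) and 24 to 41 (17.9% to 26.6%). The replicate block gave 14 and 38 (22.5% and 23.2%). DESeq2 called 1 member for weight gain, beside 1.49% of all transcripts. The slope of transcript1570 was 0.07 without female hepatopancreas 1 and ran from -1.09 to 0.07 when 1 library was left out. The cause of these changes was not tested. For the 12 named members, 190 of the values under alternatives kept direction and side of the threshold, 4 gained a call, 1 lost it and 1 reversed. For female hepatopancreas and ovary the descriptions also share a name and number, without naming a shared animal. Correlations of deviations between same-numbered libraries ran from -0.06 to 0.11 between the sexes' hepatopancreas (1 of 5 over 0.1). They ran from -0.06 to 0.4 between female hepatopancreas and ovary (4 of 5), and from -0.04 to 0.08 between the gonads. The block turned no other call count by more than 1.5 times. Library totals limit what low values show: a member at 0 in a group can hold up to 3 counts over it.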
